A study of Mus musculus with 6 samples.

Results

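The voltage-gated sodium and calcium channel genes were followed in whole hearts of mice that lack cyclophilin D. They were taken as every array probe set annotated with exactly 1 gene symbol that names a sodium channel subunit (Scn followed by a digit) or a calcium channel subunit (Cacna, Cacnb or Cacng). Where a gene had several probe sets, the one with the highest mean over all arrays stood for it. This gave 35 genes from 51 probe sets, 11 of sodium and 24 of calcium channels, among 19938 genes named in this way on the array.

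The arrays held 3 hearts of Ppif-/- mice, a global knockout of the gene for cyclophilin D, and 3 hearts of wild-type (WT) mice. All mice were C57BL/6 and aged 8 weeks, and the Ppif-/- line had been moved onto C57BL/6 by backcrossing from Sv129. Because the deletion is in every cell type, and whole hearts were used, fewer cells of a type and less RNA per cell cannot be told apart. Each heart was read on 1 Affymetrix Gene 1.0 ST array, and values are log2 expression after RMA, so a difference of 1 is a 2-fold change. Ppif itself read 6.00, 6.25 and 6.44 in Ppif-/- hearts against 11.44, 11.28 and 11.49 in WT hearts (difference -5.17 ± 0.12, SE). Array medians lay between 6.03 and 6.11, and no 2 arrays held identical values. With 3 arrays a genotype, precision is limited throughout.

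Voltage-gated channels are membrane pores that open when the membrane potential changes. In heart muscle, sodium channels carry the fast upstroke of the action potential, and L-type calcium channels then admit the calcium that triggers release from the sarcoplasmic reticulum. T-type calcium channels open at more negative potentials, and are known from pacemaker cells, the fetal ventricle and arterial smooth muscle. The alpha (alpha1 in calcium channels) subunit forms the pore, and smaller subunits set its trafficking and gating.

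Of the 35 channel genes, 1 passed the threshold, the T-type pore gene Cacna1h, which was lower in Ppif-/- hearts. The test was limma over 23410 probe sets with a gene symbol, with Benjamini-Hochberg adjustment over all of them and a threshold of 0.05. The 1 gene was 2.86% of the channel genes, beside 1.09% of all probe sets tested and 0.461% called lower. At an unadjusted limma p under 0.05 there were 7 channel genes, 3 higher and 4 lower, or 20% beside 12.9% of all probe sets (6.1% higher and 6.81% lower). The 3 Ppif-/- hearts lay entirely to one side of the 3 WT hearts for 9 genes, 3 higher and 6 lower, or 25.7% beside 19.8% of all probe sets (9.21% higher and 10.6% lower). The median difference over the 35 genes was 0.01, and that over all probe sets tested was 0.00.

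**Figure D1:**
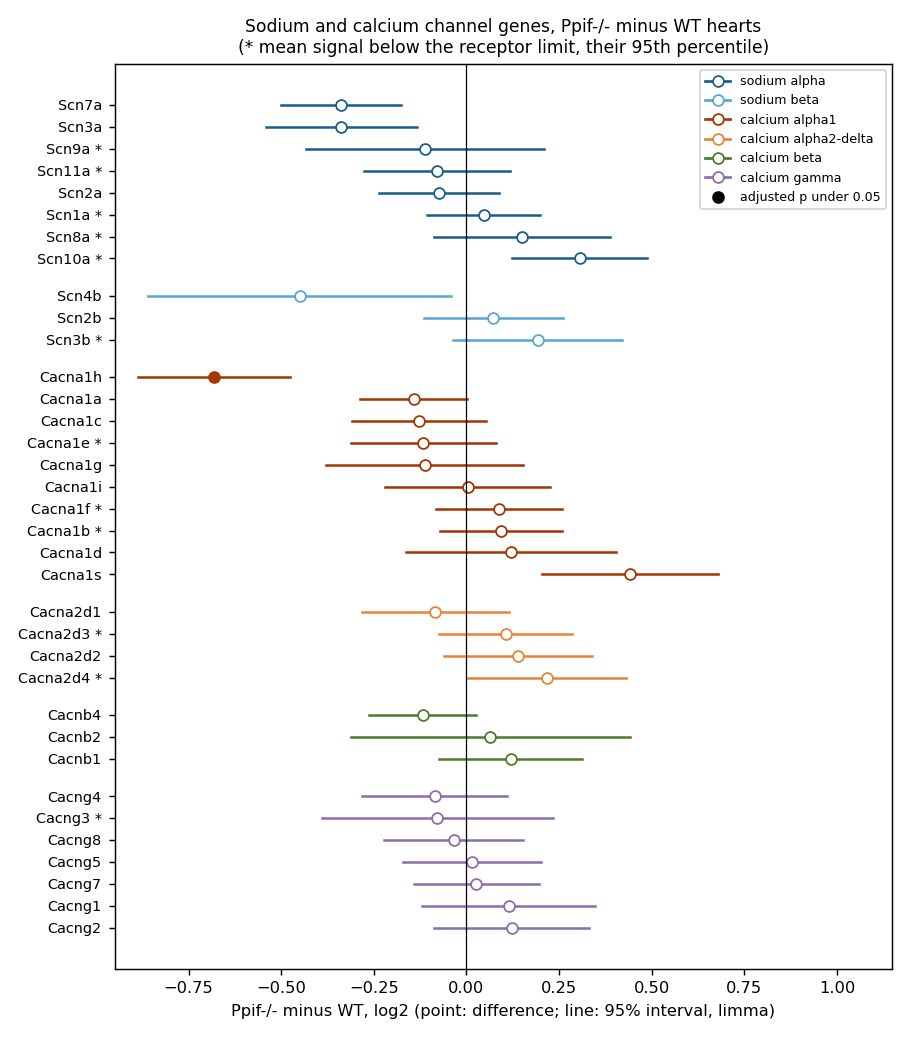
Differences between Ppif-/- and WT hearts (x axis, log2) for the 35 channel genes (y axis), by subunit class, with 95% intervals from limma. Filled points passed an adjusted p of 0.05, and asterisks mark genes whose mean signal was below the 95th percentile of olfactory and vomeronasal receptors. Cacna1h at -0.68 is the 1 filled point, and 28 of the other 34 intervals include 0.

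How bright a probe set was bears on what it can show. The heart is not known to use olfactory and vomeronasal receptors, and the 95th percentile of the means of their 1205 probe sets was 5.40, with a median of 3.80. This percentile is called the receptor limit from here on. Of the channel genes, 23 had a mean above the limit and 12 did not. The genes Scn7a, Cacna1c and Cacna2d1, 3 in all, read above the brightest of these receptor probe sets (8.28). Signals of different probe sets depend on their probes, so no level of one gene is set against that of another. The 12 dimmer genes read between 3.54 and 5.60 in single hearts, and their differences ran from -0.12 to 0.31.

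**Figure D2:**
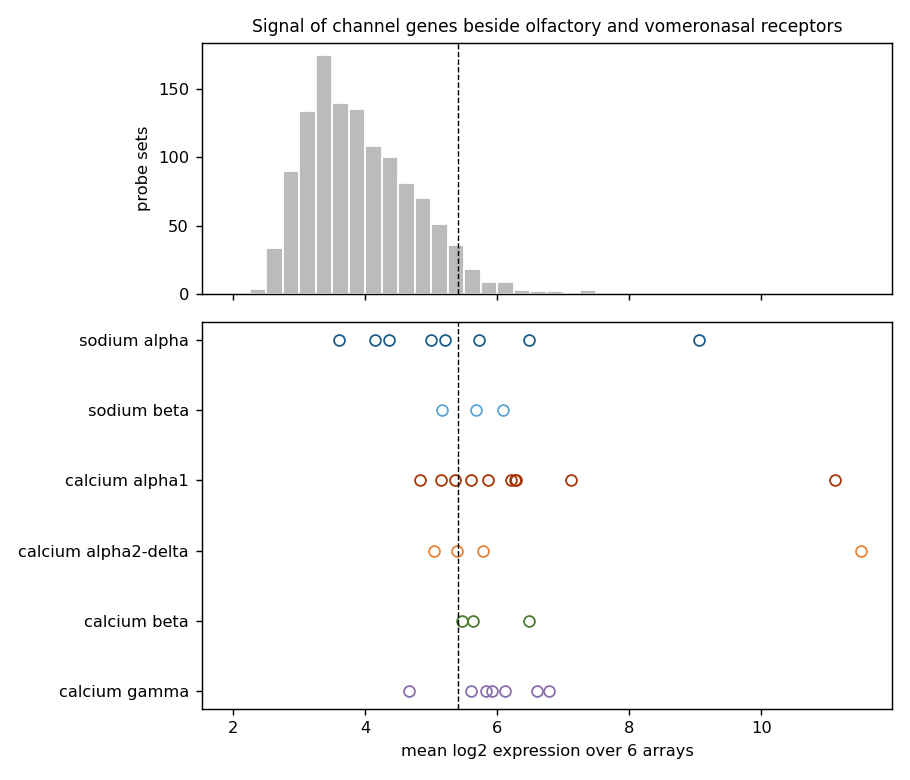
Mean log2 expression over the 6 arrays (x axis). The upper panel counts olfactory and vomeronasal receptor probe sets in bins of 0.25, the lower panel shows each channel gene as a circle by subunit class, and the dashed line marks the receptors' 95th percentile, 5.40. Most channel genes sit within 2 log2 units of the line, while Scn7a, Cacna1c and Cacna2d1 stand clear to its right.

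Cacna1h (Entrez gene 58226, probe set 10448925, chromosome 17) encodes a pore-forming subunit of T-type channels. It read 5.73, 5.92 and 5.97 in Ppif-/- hearts against 6.59, 6.63 and 6.45 in WT hearts. Every Ppif-/- heart was below every WT heart, by more than the spread within either genotype. The means were 5.87 ± 0.13 in Ppif-/- and 6.55 ± 0.09 in WT hearts (SD, n = 3 each), a difference of -0.68 ± 0.09 (SE, 95% interval -0.89 to -0.48, limma adjusted p = 0.0134). On the linear scale the Ppif-/- level was 0.624 of the WT level. The adjusted p rose to 0.0525 on leaving out Ppif-/- heart 2, to 0.0648 on leaving out WT heart 1 and to 0.0535 on leaving out WT heart 2, which ends the call. Testing all 35557 probe sets, named or not, also ended it (0.0593). Over all 16 alternatives, of which 5 ended the call, the difference stayed between -0.73 and -0.61 and the adjusted p between 0.0062 and 0.0648. The signal was modest: 0.581% of the receptor probe sets were brighter than Cacna1h in WT hearts, and 2.24% were in Ppif-/- hearts.

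The other T-type pore genes were Cacna1g, which is known from pacemaker tissue, and Cacna1i, known chiefly from the brain. Cacna1g read 7.05, 7.10 and 7.05 in Ppif-/- hearts against 7.42, 6.95 and 7.17 in WT hearts, so the WT hearts spanned all Ppif-/- hearts. Its difference was -0.11 ± 0.11 (SE, 95% interval -0.38 to 0.15), and it did not pass (limma adjusted p = 0.75). Cacna1i read 5.57, 5.45 and 5.80 in Ppif-/- hearts and 5.61, 5.63 and 5.57 in WT hearts (difference 0.00 ± 0.10). Within each array, Cacna1h relative to Cacna1g differed by -0.57 between Ppif-/- and WT hearts, and relative to Cacna1i by -0.68. With 6 hearts the smallest p that permuting the genotypes allows is 0.1, and each comparison had it (2-sided exact permutation p = 0.1, 0.133 after adjustment over 4 such pairs). These pairs reuse the values of Cacna1h, already apart between the genotypes, and were chosen after the values were seen. Their p therefore adds no support.

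**Figure D3:**
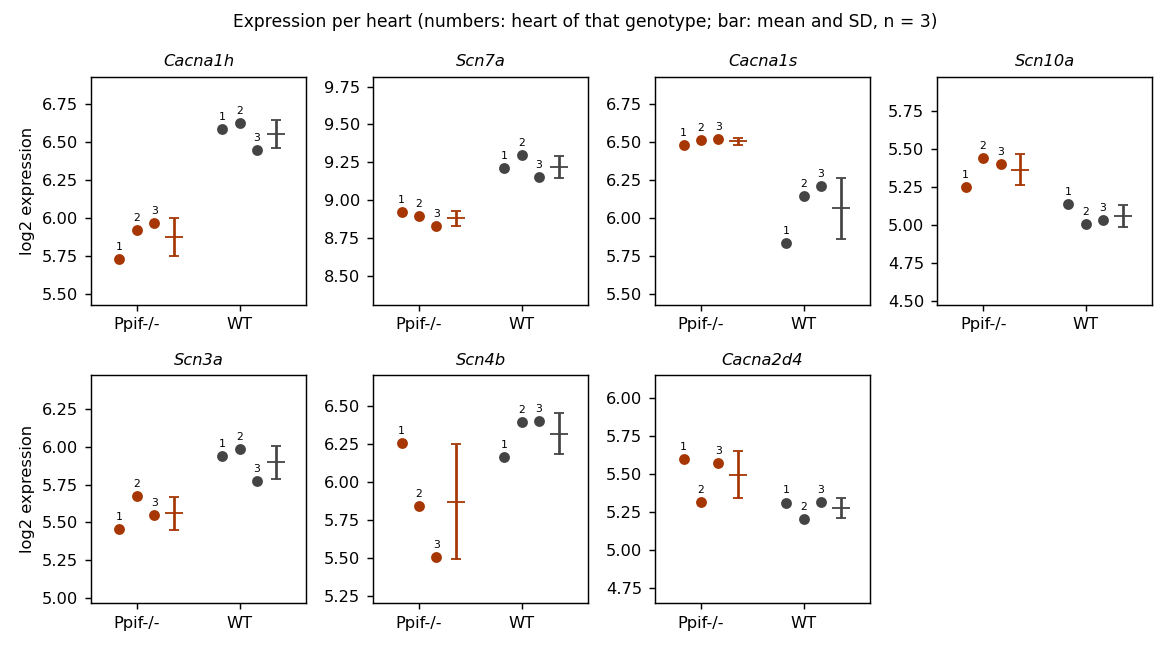
Log2 expression (y axis) in each Ppif-/- and WT heart for the 7 channel genes with an unadjusted limma p under 0.05, in the order of that p. Points carry the heart's number, bars are the mean and SD (n = 3), and every panel spans 1.5 log2 units. The genotypes do not overlap for Cacna1h, Scn7a, Cacna1s, Scn10a and Scn3a, and they do for Scn4b and Cacna2d4.

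Among L-type pore genes, Cacna1c carries the calcium current of ventricular muscle. It read 11.10, 10.97 and 11.07 in Ppif-/- hearts against 11.11, 11.29 and 11.12 in WT hearts. The Ppif-/- hearts were all lower, but the highest of them and the lowest WT heart were close together, and the difference of -0.13 ± 0.08 (SE, 95% interval -0.31 to 0.05) did not pass (limma adjusted p = 0.547). Cacna1d, the L-type gene of pacemaker cells, read 5.83, 5.91 and 6.04 in Ppif-/- and 5.93, 5.53 and 5.95 in WT hearts, with both genotypes overlapping (difference 0.12 ± 0.12). Cacna1s, the pore and voltage sensor of skeletal muscle, read 6.48, 6.52 and 6.52 in Ppif-/- hearts against 5.84, 6.15 and 6.21 in WT hearts. The Ppif-/- hearts were closely grouped above all WT hearts, of which heart 1 was the lowest. The difference of 0.44 ± 0.10 (SE, 95% interval 0.20 to 0.68) had an unadjusted limma p of 0.00281 and did not pass over all probe sets (adjusted p = 0.114). Relative to Cacna1c within each array, Cacna1s was 0.57 higher in Ppif-/- than in WT hearts (2-sided exact permutation p = 0.1, 0.133 adjusted), and relative to Cacna1d 0.32 higher (exact permutation p = 0.3, also 0.3 adjusted). Here too 0.1 is the smallest p possible. Both pairs reuse the values of Cacna1s and were chosen after the values were seen, so they add no support.

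Skeletal muscle markers were set beside Cacna1s. Of 10 measured, 0 had an unadjusted limma p under 0.05, beside 12.9% of all probe sets. The summed log2 level of the 10 was 55.51 to 56.53 in Ppif-/- and 55.29 to 56.63 in WT hearts. The fast myosin genes Myh1, Myh2 and Myh4, with Actn3 and Pvalb, were below the receptor limit.

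The remaining pore genes belong to presynaptic and neuronal channels. Cacna1a, of P/Q-type channels, read 6.16, 6.24 and 6.19 in Ppif-/- hearts against 6.33, 6.34 and 6.35 in WT hearts. The WT hearts were nearly equal and all Ppif-/- hearts were lower, by a small amount (-0.14 ± 0.06, limma adjusted p = 0.395). Cacna1b (N-type, 0.09), Cacna1e (R-type, -0.12) and Cacna1f (the retinal L-type gene, 0.09) were below the receptor limit and did not pass.

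The auxiliary alpha2-delta subunits, of which Cacna2d1 is the main one in heart muscle, bring the pore to the cell surface. Cacna2d1 read 11.52, 11.46 and 11.42 in Ppif-/- hearts against 11.68, 11.40 and 11.57 in WT hearts, with the genotypes overlapping (difference -0.08 ± 0.09, 95% interval -0.28 to 0.11). A further Cacna2d1 probe set gave -0.09. Cacna2d2 read 5.77, 5.79 and 6.01 in Ppif-/- and 5.79, 5.73 and 5.63 in WT hearts (0.14 ± 0.09). Cacna2d4, a retinal subunit, read 5.60, 5.32 and 5.57 in Ppif-/- hearts against 5.31, 5.20 and 5.32 in WT hearts, near the receptor limit. Its difference of 0.22 ± 0.09 did not pass (limma adjusted p = 0.374), and Ppif-/- heart 2 lay within the WT hearts. Cacna2d3 was dim and differed by 0.11.

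The beta subunits bind the pore subunit from the cytosol and free it for the membrane. Cacnb2, the main one in heart muscle, read 5.40, 5.38 and 5.71 in Ppif-/- hearts against 5.34, 5.17 and 5.78 in WT hearts. Its mean of 5.46 was only just above the receptor limit, and hearts 1 and 2 of each genotype were below that limit. The heart numbered 3 was the highest of each genotype, and the difference was small beside that spread (0.06 ± 0.16, 95% interval -0.31 to 0.44). Cacnb1, the skeletal muscle subunit, read 6.52, 6.61 and 6.51 in Ppif-/- and 6.28, 6.50 and 6.51 in WT hearts (0.12 ± 0.08). Cacnb4, known from the brain, read 5.60, 5.55 and 5.58 in Ppif-/- hearts and 5.67, 5.68 and 5.73 in WT hearts (-0.12 ± 0.06). For both genes the genotypes did not overlap, Cacnb1 being higher in each Ppif-/- heart by a margin lost in rounding and Cacnb4 lower, yet neither passed (limma adjusted p = 0.608 and 0.48).

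The gamma subunits comprise Cacng1 of the skeletal muscle channel and relatives that mostly serve as auxiliary subunits of AMPA glutamate receptors. In limma 0 of the 7 measured passed, also 0 at an unadjusted p under 0.05, and the genotypes overlapped for each. Over all probe sets 1.09% passed, 12.9% had that unadjusted p and 19.8% did not overlap. Counts of 0 among 7 genes therefore say little. The differences of the 7 gamma genes ran from -0.09 to 0.12. Cacng1 read 5.84, 5.95 and 5.85 in Ppif-/- hearts against 5.66, 5.98 and 5.66 in WT hearts. Cacng2, or stargazin, read 6.48, 6.78 and 6.71 in Ppif-/- and 6.56, 6.49 and 6.56 in WT hearts, and its difference of 0.12 ± 0.09 was the highest of the class. Cacng4 read 6.05, 6.17 and 6.02 in Ppif-/- and 6.27, 6.03 and 6.20 in WT hearts. Cacng5 (0.01), Cacng7 (0.03) and Cacng8 (-0.03) lay closest to 0. Cacng5 read 5.91, 5.82 and 6.06 in Ppif-/- and 5.89, 5.90 and 5.97 in WT hearts. Cacng7 read 6.77, 6.87 and 6.75 in Ppif-/- and 6.69, 6.81 and 6.82 in WT hearts. Cacng8 read 5.46, 5.67 and 5.61 in Ppif-/- and 5.69, 5.54 and 5.62 in WT hearts, and Cacng3 was below the receptor limit.

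Limma called 0 of the 11 sodium channel genes, beside 1.09% of all probe sets. At an unadjusted p under 0.05 there were 4 of the 11, 1 higher and 3 lower. That is a larger share than the 12.9% of all probe sets (6.1% higher and 6.81% lower), among few genes. Scn7a (Entrez gene 20272, chromosome 2) encodes an atypical channel, Nax, which senses the sodium concentration and is known from glia. It read 8.92, 8.90 and 8.83 in Ppif-/- hearts against 9.21, 9.30 and 9.15 in WT hearts. The genotypes were well apart, with a narrow spread in each. The difference of -0.34 ± 0.07 (SE, 95% interval -0.50 to -0.18) missed the threshold (limma adjusted p = 0.0792). It passed when the 16031 probe sets above the receptor limit were tested alone (0.0488) and with a variance trend (0.0325), which were 2 of 16 alternatives. Over all 16 the adjusted p lay between 0.0325 and 0.225.

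Glial and smooth muscle markers were set beside Scn7a and Cacna1h. Of 8 measured markers of glia and Schwann cells, the cadherin Cdh19 passed and was lower (-0.73 ± 0.09, limma adjusted p = 0.0107), and the neurotrophic factor receptor Gfra3 was at -0.46 without passing. Their summed log2 level was 47.97 to 49.38 in Ppif-/- and 49.14 to 51.08 in WT hearts, and S100b and Gap43 were below the receptor limit. Of 10 markers of smooth muscle and pericytes, all above the receptor limit, Tagln, which binds actin, passed and was lower (-0.51, adjusted p = 0.0332). At an unadjusted limma p under 0.05, 2 of these 10 were higher and 4 lower, beside 6.1% and 6.81% of all probe sets. The smooth muscle myosin Myh11 was at -0.53 and the pericyte gene Rgs5 at 0.27, and neither passed. Their summed log2 level was 88.98 to 89.81 in Ppif-/- and 90.47 to 91.85 in WT hearts. The part of these cells in the differences of Scn7a and Cacna1h was not tested. In the neuron list, limma called 0 of 14 genes, with 3 at an unadjusted p under 0.05, and 8 were below the receptor limit, among them Dbh of noradrenaline synthesis. Its summed log2 level was 77.89 to 79.16 in Ppif-/- and 77.56 to 78.19 in WT hearts. The 10 heart muscle markers summed to 134.85 to 134.87 in Ppif-/- and 134.45 to 134.94 in WT hearts. Of 7 atrial markers, Myl7, Sln and Bmp10 had means over all arrays below the receptor limit. Limma called 0 of the 7, with 1 higher at an unadjusted p under 0.05. The atrial list summed to 47.47 to 48.76 in Ppif-/- and 46.54 to 47.09 in WT hearts. In the other marker lists, Pdgfra was the 1 of 10 fibroblast genes that passed (-0.44, adjusted p = 0.0246) and Cd68 the 1 of 10 macrophage genes (0.56, adjusted p = 0.0394). Limma called 0 of 10 endothelial, 8 T and B cell, 7 brown adipocyte and 3 erythroid genes, with 2, 3, 0 and 1 at an unadjusted p under 0.05. Over all probe sets tested, limma called 1.09%, and 12.9% had an unadjusted p under 0.05.

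The sodium channel genes Scn1a, Scn2a, Scn3a and Scn8a are best known from the brain, and Scn9a, Scn10a and Scn11a from sensory neurons. Scn3a read 5.46, 5.68 and 5.55 in Ppif-/- hearts against 5.94, 5.98 and 5.77 in WT hearts. Each Ppif-/- heart was lower, yet the difference of -0.34 ± 0.09 did not pass (limma adjusted p = 0.151). Scn10a was opposite in sign, at 5.25, 5.44 and 5.40 in Ppif-/- hearts against 5.14, 5.01 and 5.03 in WT hearts. Its difference of 0.31 ± 0.08 did not pass (limma adjusted p = 0.147), and its mean was below the receptor limit. Scn2a read 6.45, 6.47 and 6.41 in Ppif-/- and 6.43, 6.53 and 6.60 in WT hearts (-0.07 ± 0.07). It was covered by 14 probe sets, of which 11 differed below 0 and 3 above 0, from -0.28 to 0.09, and 0 passed in limma. Only the one used for Scn2a was above the receptor limit. Scn1a, Scn8a, Scn9a and Scn11a were below the receptor limit, with differences from -0.11 to 0.15. A further 3 probe sets shared by several of these genes were not assigned to any, and 0 of them passed in limma.

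The sodium channel beta subunits are adhesion proteins that tune the gating of the pore. Scn4b read 6.26, 5.84 and 5.50 in Ppif-/- hearts against 6.16, 6.39 and 6.40 in WT hearts. Ppif-/- heart 1 lay among the WT hearts while hearts 2 and 3 were below them, and the spread was wider in Ppif-/- (SD 0.38) than in WT hearts (SD 0.13). The difference of -0.45 ± 0.18 (SE, 95% interval -0.86 to -0.04) did not pass (limma adjusted p = 0.337). It was -0.27 without Ppif-/- heart 3 and -0.65 without Ppif-/- heart 1. Scn2b read 5.74, 5.82 and 5.60 in Ppif-/- and 5.56, 5.68 and 5.70 in WT hearts (0.07 ± 0.08), and Scn3b, below the receptor limit, differed by 0.19.

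For the 34 genes that did not pass, 30 had 95% intervals that stayed within 0.5 log2 units of 0. The widest reached -0.86 for Scn4b and 0.68 for Cacna1s.

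The position of the genes was also described, since the Ppif-/- line came from another strain. Ppif itself is on chromosome 14, as are the channel genes Cacna1d and Cacna2d3. Their differences were 0.12 for Cacna1d and 0.11 for Cacna2d3, which was below the receptor limit, and neither passed. Whether sequence of the donor strain remained around Ppif was not tested. The channel genes lay on 12 chromosomes in the GRCm38.p6 gene table, 8 of them on chromosome 2. Scn3a, Scn2a, Scn1a, Scn9a and Scn7a stood near each other there, and their differences were -0.34, -0.07, 0.05, -0.11 and -0.34. Among the 20 measured genes nearest to Cacna1h, 10 on each side, limma called 0, with 4 at an unadjusted p under 0.05. Their differences ran from -0.34 (Lmf1) to 0.21 (Msln). Among the 20 nearest to Cacna1s on chromosome 1, 2 passed and were higher, with 4 at an unadjusted p under 0.05, 3 higher and 1 lower. Lad1, an anchoring filament protein, read 6.91, 6.86 and 6.98 in Ppif-/- hearts against 6.49, 6.44 and 6.48 in WT hearts (0.44, limma adjusted p = 0.0246). Phlda3, a p53 target, was at 0.63 (adjusted p = 0.0336). Ddx59, an RNA helicase gene, was at -0.35 and did not pass (limma adjusted p = 0.0727). Around Scn7a limma called 0 of 20, with 2 at an unadjusted p under 0.05, Cers6 (-0.49) and Scn3a (-0.34). Those 20 include the channel genes Scn3a, Scn2a, Scn1a and Scn9a, already counted above. Over all probe sets tested, limma called 1.09%, and 12.9% had an unadjusted p under 0.05.

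**Figure D4:**
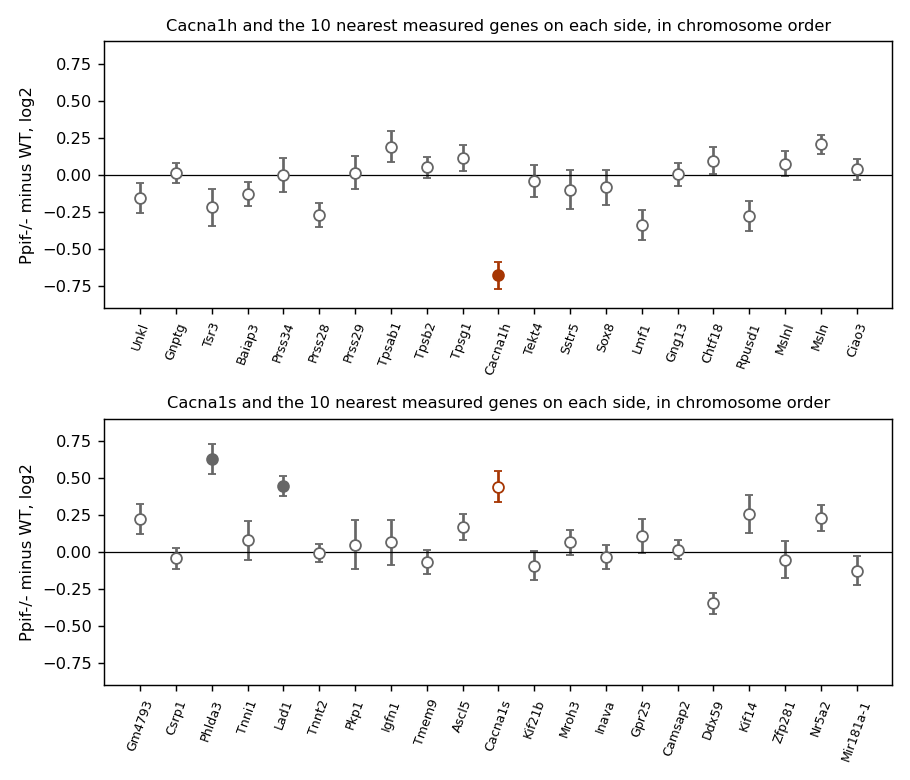
Differences between Ppif-/- and WT hearts (y axis, log2, bars are SE) for Cacna1h and Cacna1s (orange) and the 10 nearest measured genes on each side, in chromosome order and not to scale (x axis). Filled points passed an adjusted p of 0.05. Cacna1h at -0.68 is the 1 filled point of its panel, while Lad1 and Phlda3 pass to the left of Cacna1s.

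Upstream sequences are shown for Scn7a and Cacna1s, the genes with the smallest p after Cacna1h on the lower and higher side. They are the 250 bases before the start of the gene in RefSeq's GRCm38.p6 table, 5′ to 3′ on the gene's strand. Of the 35 channel genes, 27 had 1 or more promoters in that table, 37 in all, and Cacna1h was not among them. Capitals mark CAGCTG, the E-box bound by myogenic factors, and CGCCCACGC, the reverse complement of the EGR element GCGTGGGCG.
Scn7a, chr2:66784911-66785160, minus strand: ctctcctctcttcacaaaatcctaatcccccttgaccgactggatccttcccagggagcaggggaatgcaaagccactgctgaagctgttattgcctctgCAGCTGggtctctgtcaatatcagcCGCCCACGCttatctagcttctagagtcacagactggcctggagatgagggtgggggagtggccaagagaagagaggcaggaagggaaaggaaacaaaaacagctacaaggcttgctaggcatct
Cacna1s, chr1:136052561-136052810, plus strand: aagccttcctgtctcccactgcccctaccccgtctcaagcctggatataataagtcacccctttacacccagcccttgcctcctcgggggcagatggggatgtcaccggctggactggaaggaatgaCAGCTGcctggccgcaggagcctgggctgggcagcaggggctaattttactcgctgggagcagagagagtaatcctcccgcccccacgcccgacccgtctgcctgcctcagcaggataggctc
Both held CAGCTG once. It was found at least once in 11 of the 37 channel promoters (29.7%), these included, and in 13% of all 32851 promoters. The EGR element was found in Scn7a alone of the 37 (2.7%) and in 0.536% of all promoters. The clock E-box CACGTG was in 0 of 37 and in 6.02% of all, and TATAAA in 2 of 37 (5.41%) and 12.4% of all. Both strands were searched, and the matches describe letters, not bound sites.

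Genes that bind, anchor or regulate the channels were taken from 3 lists, of which 61 genes were measured and 0 passed in limma. At an unadjusted p under 0.05 there were 13 of the 61, a larger share than the 12.9% of all probe sets. The lists were chosen with earlier results of these data known. The median difference of the 61 genes was 0.01. Of 21 sodium channel partners, 2 were higher and 2 lower at that unadjusted p, beside 6.1% higher and 6.81% lower over all probe sets. The scaffold Dlg1 read 10.29, 10.19 and 10.21 in Ppif-/- hearts against 10.57, 10.51 and 10.52 in WT hearts (-0.30, limma adjusted p = 0.0918). Fgf13, a cytosolic modulator of sodium channels, read 9.17, 9.27 and 9.18 in Ppif-/- and 8.96, 8.82 and 8.98 in WT hearts (0.29, adjusted p = 0.145). The next smallest p belonged to N-cadherin, Cdh2 (0.21), and to Hepacam2 (-0.32), which was below the receptor limit.

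Of 21 calcium channel partners, 3 were higher and 2 lower at an unadjusted limma p under 0.05, beside the same 6.1% and 6.81% of all probe sets. Nos1ap, an adaptor of neuronal nitric oxide synthase linked to the QT interval, read 7.47, 7.40 and 7.23 in Ppif-/- hearts against 6.96, 6.97 and 6.96 in WT hearts (0.41, limma adjusted p = 0.0649). Gem, a small GTPase that inhibits calcium channels through the beta subunit, read 7.19, 7.12 and 7.11 in Ppif-/- and 6.61, 6.60 and 6.89 in WT hearts (0.44, adjusted p = 0.0832). Akap5, which anchors protein kinase A at L-type channels, was at 0.81 ± 0.17 (adjusted p = 0.0897). The release channel Ryr2 differed by -0.19 (adjusted p = 0.248). For these 4 genes the genotypes did not overlap, as for 19.8% of all probe sets. The 4 were named for having the smallest p of their list, so this adds no support.

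Of 19 genes of the conduction system and its transcription factors, 1 was higher and 3 lower at an unadjusted limma p under 0.05, beside 6.1% and 6.81% of all probe sets. Irx3, a transcription factor of the fast conduction network, read 8.37, 8.47 and 8.42 in Ppif-/- hearts against 8.14, 8.14 and 8.17 in WT hearts (0.27, limma adjusted p = 0.114). Cntn2, an adhesion molecule that marks Purkinje cells, read 6.00, 6.50 and 6.46 in Ppif-/- and 6.90, 6.83 and 6.82 in WT hearts (-0.53, adjusted p = 0.135). Hey2, a ventricular repressor of the Notch pathway, was at -0.46, and Isl1, a factor of pacemaker progenitors, was below the receptor limit at -0.25.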

How the data were processed

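Per the submitters' processing notes, the deposited log2 values per probe set were made by the authors with RMA, which corrects background, normalises between arrays and summarises probes. For the software behind RMA, and for filters, scan dates and batches, the labels give nothing. Values ran from 1.91 to 14.63 with 0 missing.

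Names came from the platform annotation, in which 21789 of 35557 carried 1 symbol, 1621 several and 12147 none, and 21698 of those with 1 symbol were matched to a GRCm38.p6 gene table for current names. The comparison of Ppif-/- with WT hearts used limma 3.58.1 (R 4.3.3), fitting lmFit and eBayes without covariates, 2-sided, over 23410 probe sets. Differences are Ppif-/- minus WT, with the standard error of the fit. Member genes, partner lists and marker lists were chosen with earlier results of these data known. The neighbours, the promoters and the 4 subunit pairs were chosen after the values were seen.

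Single-heart values are given for channel genes with an unadjusted p under 0.05 or a mean above the receptors' 95th percentile, and for partner genes the 4 with the smallest p per list are named. In simulated arrays of this comparison with 23410 probe sets, the share of changes called was 0% at a log2 size of 0.25, 36% at 0.5, 86% at 1 and 100% at 2. It made 0 calls when nothing was changed. Alternatives were the replicate number as a block, other sets of probe sets, other normalisation, variance priors, array weights, another probe set per gene, and leaving out each heart in turn.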

Additional observations from a re-analysis of the deposited data

How the results depend on the processing

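The count of channel genes that passed was 1. It was 0 with the replicate block and with all probe sets tested, 2 on the probe sets above the receptor limit and with a variance trend, and between 0 and 1 when 1 heart was left out. The hearts that end the call when left out are Ppif-/- heart 2 and WT hearts 1 and 2. The labels do not say whether the replicate numbers pair the hearts. Deviations of same-numbered hearts correlated at -0.08, -0.06 and 0.12, and those of differently numbered hearts at -0.13 to 0.16. With so few hearts these values cannot settle whether they were paired. With the block the Cacna1h difference of -0.68 had a limma adjusted p of 0.053, while 160 probe sets passed in place of 254. Over all probe sets, 131 passed with all probe sets tested, 453 with a variance trend, 386 with array weights, and 131 to 171 with 1 heart left out. The median difference of the channel genes moved to -0.035 on the probe sets above the receptor limit and to -0.027 with array weights, and lay between -0.045 and 0.039 with 1 heart left out. For the partner genes, 0 passed at first, 1 did above the receptor limit (Nos1ap), 2 with a variance trend (Dlg1 and Ryr2), 2 with array weights (Dlg1 and Nos1ap), and 0 to 1 with 1 heart left out (Gem, without WT heart 3). The count at an unadjusted p stayed between 5 and 7, and Ppif kept its call in each of the 16 alternatives. Of 398 values of named channel genes under these alternatives, 19 had the opposite sign, all of genes that did not pass, and 7 changed their call, 5 of Cacna1h and 2 of Scn7a. Signal below the receptor limit limits what can be said of the 12 dimmer genes.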
